A study of Drosophila melanogaster and Drosophila mauritiana and Drosophila melanogaster x Drosophila mauritiana with 7 samples.

Results

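Small RNAs of the F1 hybrid between Drosophila melanogaster and Drosophila mauritiana were set against the mid-parent expectation, the mean of the 2 parental values, transposon by transposon. A repeat was measured where at least 100 reads carried its name in any of 3 libraries, which held for 165 of the 212 repeats in the table. The libraries came from testes of adults aged 0 to 5 days, after gel selection of RNAs of 19 to 29 nt. The hybrid library came from F1 offspring of D. melanogaster carrying Hmr1 (strain P{}Hmr1) and wild-type D. mauritiana; the parental libraries came from the P{}Hmr1 strain and from the wild-type D. mauritiana strain. These were 3 of the 7 libraries of a study of piRNA silencing in hybrid testes. Hmr1 is an allele of Hmr, a hybrid incompatibility gene, and is known for letting otherwise lethal hybrid males live. The hybrid carries genomes of both species. Which species was the mother, and how many flies were pooled, is not given in the sources used here.

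PIWI-interacting RNAs (piRNAs) are the small RNAs that guide PIWI proteins to transposon transcripts in animal gonads. Many are cut from long transcripts of clusters, heterochromatic stretches filled with broken transposon copies, and most begin with U. In germ cells a further cycle, called ping-pong, pairs such RNAs with partners that carry A at base 10, while somatic cells of the ovary take piRNAs against gypsy-family retroviruses from the flamenco cluster on the X chromosome without that cycle.

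There was 1 library per group, so differences could not be checked against replicates and p-values are not given. The hybrid library held 175982 transposon reads of 23 to 30 nt, against 441146 for Hmr1 and 133204 for D. mauritiana. Each count was divided by the total of its own column, and shares are given as a percent or as RPM, reads per 1000000 reads of the table. All intervals are 95% intervals and cover counting error only, because each group held 1 library. The reads carry no molecular identifiers, so amplified copies count as separate reads and the intervals can be too narrow. The table names repeats and no genes, so the tissue could not be checked against marker genes in it. Reads of D. mauritiana were placed on a D. melanogaster genome build, which can lose diverged copies or count them under another name.

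The sequences below show what such reads look like at single places of the genome. Each had the most reads, by the hybrid or by a parental count, among the searched sequences of its repeat with 1 genomic hit. Sequences on 1 autosomal arm were left out of that search, so a more abundant sequence of the same repeat may lie there. The printed sequences are written 5′ to 3′ as DNA letters with dm6 coordinates, and capitals mark T at base 1 and A at base 10. The first 4 come from repeats above both parents, and 3 of them lie in lncRNA:flam, the transcript of the flamenco cluster. The other sequences lie in no gene of the RefSeq annotation. The next 2 come from repeats below both parents, and the last comes from a repeat found mainly in D. mauritiana.
Gypsy5_I-int, chrX:11198621-11198645, plus strand: Tatgttcttgtaaggacgtcgagaa
STALKER4_I-int, chrX:21748456-21748482, plus strand: Tttgggaattgtggctcttccgccatc
Gypsy1-LTR_DM, chrX:21656610-21656635, plus strand: Ttggtcgatggatgtatctctggaga
Gypsy1-I_DM, chrX:21767101-21767126, plus strand: Tttgagatgctgacgccgaaatggtt
G6_DM, chr2L:20106265-20106289, plus strand: Tattggacttggtcaagaagtcctt
PROTOP, chrY:887755-887780, plus strand: TttgtgatcAattggcaccatgcgaa
DMRT1C, chr3L:23429791-23429813, minus strand: TcgcttccaAtggtctcttgggg

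The Gypsy5_I-int sequence had 42 reads in the hybrid, with 13 in Hmr1 and 0 in D. mauritiana. The Hmr1 count comes from a total 2.51 times as large, so the hybrid share was 8.10 times that of Hmr1 (interval 4.26 to 16.4). The flamenco sequence of Gypsy1-I_DM had 20 reads in the hybrid, with 4 in Hmr1 and 0 in D. mauritiana, a ratio to Hmr1 of 12.5 (4.20 to 50.4). A count of 0 allows up to 17.0 RPM in the hybrid and 22.5 RPM in D. mauritiana. The Gypsy1-LTR_DM sequence had 23 reads in the hybrid, with 7 in Hmr1 and 0 in D. mauritiana. These sequences were picked for their hybrid counts, so their ratios to Hmr1 describe them and say nothing of other sequences of the same repeats. The STALKER4_I-int sequence above had 24 reads in the hybrid and 11 in Hmr1, while the STALKER4_I-int sequence with most reads in a parent, at chrX:22258403-22258427, had 5 reads in the hybrid and 190 in Hmr1. The G6_DM sequence had 0 reads in the hybrid, with 17 in Hmr1 and 154 in D. mauritiana, and the PROTOP sequence had 0, 146 and 1 read in the same order of libraries. The DMRT1C sequence had 75 reads in D. mauritiana and 0 in both the hybrid and Hmr1.

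Most repeats did not lie at the mid-parent, with 137 of 165 (83%) at least 1.5-fold away from it. The hybrid share was at least 1.5-fold above it for 58 of 165 repeats (35.2%), at least 1.5-fold below it for 79 (47.9%) and within 1.5-fold of it for 28 (17%). The median log2 ratio of hybrid to mid-parent over the 165 repeats was -0.36 (0.15 against the geometric mean of the parents), and single repeats ran from -5.38 for DMRT1C to 4.02 for Gypsy1-LTR_DM. Each repeat was then placed in a class. It was called above both parents where the hybrid share was at least 1.5-fold over each parent and both intervals lay above 1, and below both by the mirrored rule. Where the parents differed by at least 1.5-fold, the repeat otherwise took the nearest expectation within 1.5-fold on the log2 scale, which was the mean (additive), Hmr1 or D. mauritiana.

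By this rule 48 repeats lay above both parents (29.1% of those measured), 38 below both (23%) and 17 were additive (10.3%). Another 24 were like Hmr1 (14.5%) and 12 like D. mauritiana (7.27%). The parents lay within 1.5-fold of each other, and the hybrid was called outside them by neither rule, for 7 repeats named parents alike (4.24%), and 19 fitted no class (11.5%). The repeats above both took 66.6% of hybrid reads, against 15.5% at the mid-parent, 12.5% in Hmr1 and 18.5% in D. mauritiana. Those below both took 7.54% of hybrid reads, against 41.9% at the mid-parent, 39.3% in Hmr1 and 44.6% in D. mauritiana. With single-hit sequences alone, 18 of 28 repeats above both that were still measured kept that class, as did 23 of 27 below both. The additive repeats held 5.72% of hybrid reads, against 6.09% at the mid-parent.

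**Figure D1:**
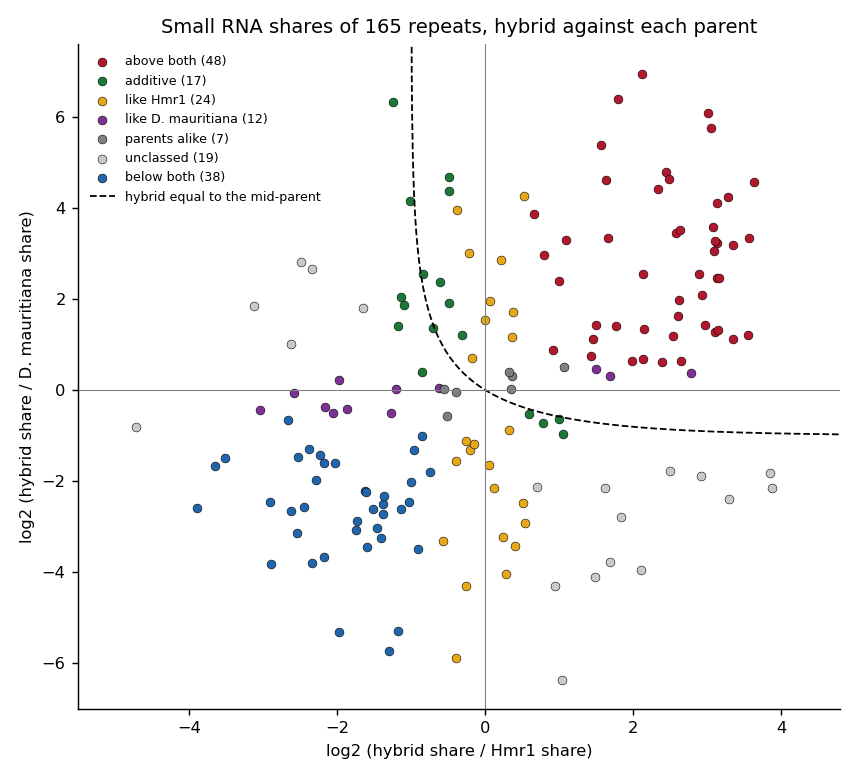
Each point is 1 of 165 repeats, with the log2 ratio of the hybrid share to the Hmr1 share on the x axis and to the D. mauritiana share on the y axis, coloured by class; on the dashed line the hybrid share equals the mean of both parents. The 48 repeats above both fill the upper right, the 38 below both the lower left, and few points lie on the line.

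As a whole profile, the hybrid was no closer to the mean of the parents than the parents were to each other. Turning the hybrid profile into the mid-parent profile would move 54.6% of reads between repeats, against 57.3% for Hmr1, 57.2% for D. mauritiana and 49.6% between the parents. Counting error alone would give 1.19% for the first of these distances. Of 101 weightings of the parents, the nearest took 53% Hmr1 and also left 54.6%. Reads of the gypsy-family list made up 41.7 of the 54.6 points by which repeats exceeded the mid-parent. The deficit lay mainly in germline LINEs with 19.6 points, Pao elements with 12.9, other gypsy-class elements with 12.6 and DNA transposons with 7.75.

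Shares add up to a whole, so a larger share of one list lowers all others. When the gypsy-family reads were taken out of every total, the hybrid stood at 44.0% from the mid-parent, 44.4% from Hmr1 and 52.4% from D. mauritiana, against 51.6% between the parents. Of the 38 repeats below both, 20 were still below both on these totals, and 0 of the 17 additive repeats were still additive. All 12 repeats outside the list that were above both were still above both, and 11 more joined them. The additive calls thus held for the table totals only. Taking out the list raises the hybrid share of every other repeat more than the parental shares. A call above both outside the list could therefore not be lost, and keeping it is no check of that call.

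The gypsy-family endogenous retroviruses, long terminal repeat (LTR) elements of which many carry an envelope gene, held most of the repeats above both. Of 43 measured repeats 36 lay above both parents, 0 below both and 0 were additive, which is 83.7% above both against 29.1% of all repeats. Their median log2 ratio to the mid-parent was 2.45, against -0.36 for all 165. Their reads summed to 53.6% of the hybrid table (interval 53.3 to 53.8), against 12.1% at the mid-parent, 10.1% in Hmr1 (10.1 to 10.2) and 14.1% in D. mauritiana (13.9 to 14.3). Some members of this list are reported in somatic cells of the gonad. Whether the list as a whole marks that cell type was not tested. The median member had 5285 RPM in the hybrid, against 1410 in Hmr1 and 1509 in D. mauritiana. Of the 43 members 0 were listed at 0 reads in each of the 3 libraries, and no gene of somatic cells is in the table. Whether the share of somatic tissue in the testes plays a part was not tested; more cells of a type and more RNA per cell cannot be told apart in such bulk samples.

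**Figure D2:**
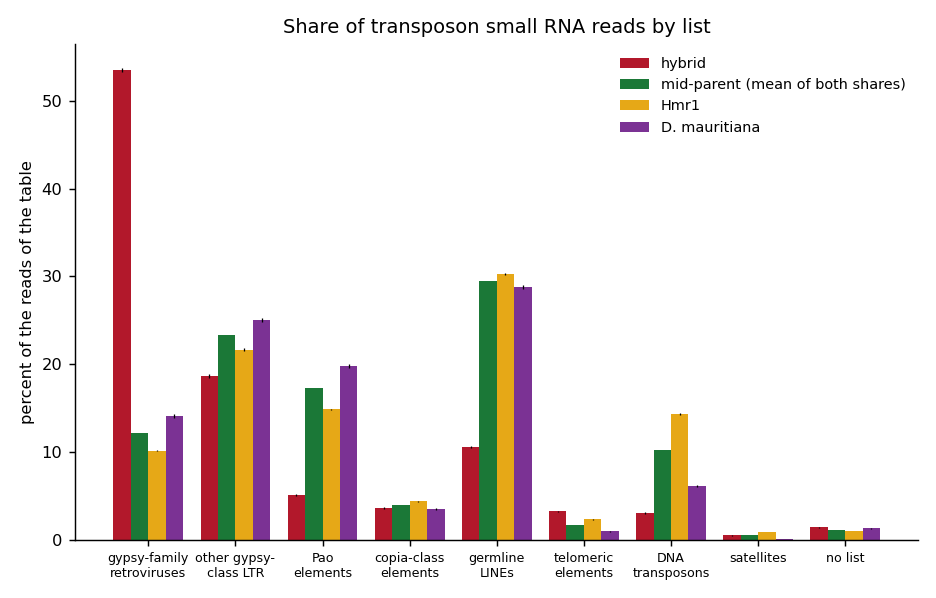
Bars give the percent of table reads in each list for the hybrid, the mid-parent, Hmr1 and D. mauritiana, with exact 95% intervals of counting error on the 3 libraries. The gypsy-family bar of the hybrid stands at 53.6%, against 12.1% for the mid-parent, and the hybrid bars of Pao elements, LINEs and DNA transposons are lower than both parental bars.

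Gypsy5_I-int, the internal part of the element shown above, had 41885 RPM in the hybrid, against 3831 at the mid-parent, 3534 in Hmr1 and 4129 in D. mauritiana. Its ratio to the mid-parent was 10.9, and its LTR gave 9.98. The parents were close to each other and the hybrid stood about as far above either one. TIRANT_I-int, from another envelope-carrying element, showed the same order, with 15365 RPM in the hybrid, 1595 at the mid-parent, 1501 in Hmr1 and 1689 in D. mauritiana. Gypsy_LTR, the terminal repeat of gypsy itself, had 10836 RPM in the hybrid, 839 at the mid-parent, 1115 in Hmr1 and 563 in D. mauritiana, a ratio of 12.9. In each of these the hybrid exceeded whichever parent was higher. The highest ratio belonged to Gypsy1-LTR_DM, at 16.8, from 374 reads in the hybrid, with 75 in Hmr1 and 11 in D. mauritiana. Gypsy6_LTR and GTWIN_LTR followed with ratios of 15.0 and 14.8, ahead of Gypsy_LTR, and Gypsy3_I-int came after it with 11.7. Gypsy6_LTR and GTWIN_LTR had 2 and 5 reads in D. mauritiana, so their mid-parent rests mostly on Hmr1. Gypsy1-LTR_DM, with 11 reads there, and Gypsy3_I-int, with 39, were less uneven. They had 82.6 and 293 RPM in D. mauritiana, against 170 and 587 in Hmr1.

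The most abundant members had smaller ratios. TABOR_I-int had 46829 RPM in the hybrid, against 6885 at the mid-parent, 5257 in Hmr1 and 8513 in D. mauritiana, a ratio of 6.80. STALKER4_I-int reached 45454 RPM in the hybrid, with 16510 at the mid-parent, 16083 in Hmr1 and 16936 in D. mauritiana. Gypsy4_I-int was high in 1 parent, with 43124 RPM in the hybrid, 17356 at the mid-parent, 6875 in Hmr1 and 27837 in D. mauritiana. It lay just inside the limit, at 1.55 times D. mauritiana, and was like D. mauritiana with single-hit sequences, with distinct sequences counted once, at a fold limit of 2 and with reads of 25 to 28 nt. The 7 members outside the class included TOM_I-int, at 22 reads in the hybrid, with 29 in Hmr1 and 342 in D. mauritiana, and QUASIMODO2-I_DM, at 96, 166 and 553 reads. Both were more than 4-fold higher in D. mauritiana than in Hmr1, and the hybrid did not exceed that parent in either.

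The other gypsy-class LTR elements were mixed. Of 41 repeats 5 (12.2%) lay above both, 14 (34.1%) below both and 6 (14.6%) were additive, against 29.1%, 23% and 10.3% of all repeats, with a median log2 ratio of -0.93. The 29.1% rests mostly on the gypsy-family list, outside which 12 of 122 repeats lay above both. On totals without the gypsy-family list the balance turned, with 9 above both, 6 below both and a median of -0.05. DM412 had the most hybrid reads of any repeat, with 55932 RPM in the hybrid, 14801 at the mid-parent, 6494 in Hmr1 and 23107 in D. mauritiana. Its log2 ratio of 1.92 turned to -1.29 when only sequences with 1 genomic hit were counted. Gypsy8_I-int stood at the other end, with 477 RPM in the hybrid, 9980 at the mid-parent, 1095 in Hmr1 and 18866 in D. mauritiana; on totals without the gypsy-family list it was like Hmr1. NOMAD_I-int was like D. mauritiana, at 8518 RPM in the hybrid and 8889 in D. mauritiana, with 51019 in Hmr1. BURDOCK_I-int was like D. mauritiana from the other side, at 6700 RPM in the hybrid and 5142 in D. mauritiana, with 977 in Hmr1. With gypsy-family reads left out of the totals, NOMAD_I-int fitted no class and BURDOCK_I-int lay above both.

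**Figure D3:**
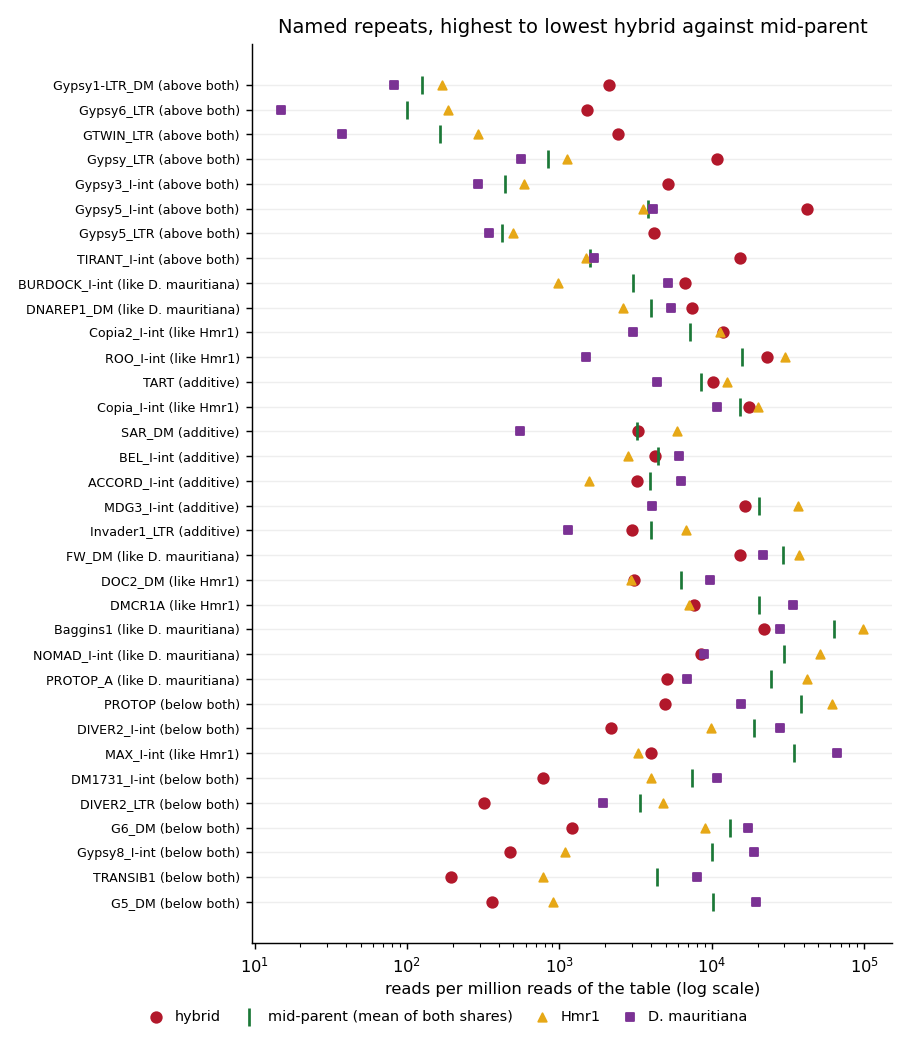
RPM, reads per 1000000 reads of the table, on a log axis, for the 8 highest and 8 lowest repeats outside both parents and the 6 most abundant additive, like Hmr1 and like D. mauritiana repeats, ordered by the log2 ratio of hybrid to mid-parent. The hybrid circle lies right of both parents in the upper 8 rows and left of both in the rows called below both.

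Pao elements, LTR elements that include roo and BEL, lay mostly under the mid-parent. Of 15 repeats 0 lay above both and 8 (53.3%) below both, against 29.1% and 23% of all repeats, and their median log2 ratio was -1.98. On totals without the gypsy-family list 5 lay below both, and the median was -1.04. Their sum was 5.14% of reads in the hybrid, 17.3% at the mid-parent, 14.8% in Hmr1 and 19.8% in D. mauritiana. BATUMI_I-int had 5387 RPM in the hybrid, against 37357 at the mid-parent, 16360 in Hmr1 and 58354 in D. mauritiana. NINJA_I-int had 5785 in the hybrid, 41352 at the mid-parent, 66361 in Hmr1 and 16343 in D. mauritiana. The parents differed in opposite directions for these elements, and the hybrid lay under the lower one each time. MAX_I-int instead took the Hmr1 level, at 4006 RPM in the hybrid, with 3305 in Hmr1 and 66470 in D. mauritiana, but lay below both with single-hit sequences and in no class on totals without the gypsy-family list. ROO_I-int was also like Hmr1, at 22997 RPM in the hybrid, with 30031 in Hmr1 and 1486 in D. mauritiana, but kept that class in only 5 of 12 alternatives. It was additive with distinct sequences counted once and with reads of 25 to 28 nt, and like D. mauritiana with single-hit sequences. Sequences of a single repeated base made up 3.98% of its hybrid reads, 0.128% of its Hmr1 reads and 17.2% of its D. mauritiana reads. BEL_I-int was additive, at 4250 RPM in the hybrid against 4470 at the mid-parent.

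Germline LINEs, retrotransposons without terminal repeats, also lay lower. Of 27 repeats 2 (7.41%) lay above both, 10 (37.0%) below both and 1 (3.70%) was additive, against 29.1%, 23% and 10.3% of all repeats, and the median log2 ratio was -1.37. Outside the gypsy-family list 12 of 122 repeats lay above both. On totals without the gypsy-family list 3 lay below both and 8 were additive, with a median of -0.46. They held 10.6% of reads in the hybrid, 29.5% at the mid-parent, 30.3% in Hmr1 and 28.8% in D. mauritiana. G5_DM had the lowest ratio among the repeats below both, with 364 RPM in the hybrid, 10185 at the mid-parent, 904 in Hmr1 and 19466 in D. mauritiana. G6_DM, whose sequence is shown above, had 1205 in the hybrid, 13088 at the mid-parent, 8999 in Hmr1 and 17177 in D. mauritiana. R1_DM, which inserts into ribosomal RNA genes, had 10888 in the hybrid, 40318 at the mid-parent, 51312 in Hmr1 and 29323 in D. mauritiana. The hybrid lay under both parents for each of these, although D. mauritiana was the higher parent for G5_DM and G6_DM and Hmr1 for R1_DM. Without gypsy-family reads in the totals, G6_DM stayed below both, while G5_DM was like Hmr1 and R1_DM like D. mauritiana. The LINEs above both were Jockey2, at 5387 RPM in the hybrid, with 961 in Hmr1 and 210 in D. mauritiana, and DOC6_DM, just inside the limit at 431 reads in the hybrid, with 206 in Hmr1 and 212 in D. mauritiana. These LINEs are named because they are the only members above both, and were chosen after their values were seen.

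Several abundant LINEs matched one parent. DMCR1A had 7660 RPM in the hybrid and 7077 in Hmr1, with 33888 in D. mauritiana. DOC2_DM had 3086 in the hybrid and 2972 in Hmr1, with 9684 in D. mauritiana, but its log2 ratio to the mid-parent of -1.03 turned to 0.61 with single-hit sequences. Baggins1 was like D. mauritiana, with 21963 RPM in the hybrid and 28220 in D. mauritiana, against 98790 in Hmr1. In Hmr1 1 sequence alone made up 10640 reads, or 24.4%, of the Baggins1 count, and that sequence had 44 reads in the hybrid and 33 in D. mauritiana. FW_DM, the F element, had 15331 in the hybrid, 21591 in D. mauritiana and 37156 in Hmr1, just outside the limit for below both. Totals without the gypsy-family list made DMCR1A, DOC2_DM and FW_DM additive. With single-hit sequences Baggins1 and FW_DM lay below both.

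DNA transposons, which move by cut and paste or related ways, summed to 3.05% of reads in the hybrid, 10.2% at the mid-parent, 14.3% in Hmr1 and 6.12% in D. mauritiana. Of 15 repeats 1 (6.67%) lay above both, against 29.1% of all repeats and 12 of the 122 outside the gypsy-family list. Those below both were 4 (26.7%) and the additive ones 2 (13.3%), shares near the 23% and 10.3% of all repeats. The median log2 ratio was -1.95, and on totals without the gypsy-family list it was -1.04, with 3 above both and 4 below both. PROTOP, related to the P element, had 4910 RPM in the hybrid, 38614 at the mid-parent, 61710 in Hmr1 and 15518 in D. mauritiana. In Hmr1 4 sequences with a shared 5′ end held 13459 reads, or 49.4%, of its count, against 23 reads in the hybrid and 42 in D. mauritiana. With every sequence of at least 1000 reads left out, 38 of the 38 repeats below both, PROTOP included, kept that class. Those sequences lay almost all in Hmr1 and belonged to PROTOP, PROTOP_A and Baggins1. Leaving them out raises the Hmr1 share of every other repeat, so for repeats below both other than PROTOP this is no check. PROTOP_A was like D. mauritiana, with 5086 RPM in the hybrid, 6914 in D. mauritiana and 41950 in Hmr1, but lay below both with single-hit sequences and with reads of 25 to 28 nt. TRANSIB1 had 193 RPM in the hybrid, 4361 at the mid-parent, 780 in Hmr1 and 7943 in D. mauritiana, and was like Hmr1 with single-hit sequences. BARI_DM, the member above both, had 218 reads in the hybrid, with 184 in Hmr1 and 3 in D. mauritiana.

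Telomeric elements, retrotransposons that maintain fly chromosome ends, were the other list that stood higher, with 3.23% of reads in the hybrid, 1.62% at the mid-parent, 2.31% in Hmr1 and 0.939% in D. mauritiana. HETA had 16882 RPM in the hybrid, 5842 at the mid-parent, 8455 in Hmr1 and 3228 in D. mauritiana. TAHRE had 3546 in the hybrid, 1079 at the mid-parent, 612 in Hmr1 and 1547 in D. mauritiana. The parents differed in opposite directions for these elements, and the hybrid lay above the higher one each time, but HETA was like Hmr1 with single-hit sequences and at a fold limit of 2. HETRP_DM, a member of this list that is annotated as a satellite, was also above both. TART was additive with 10132 RPM in the hybrid against 8475 at the mid-parent, and TART_B1 had 2 reads in the hybrid, with 197 in Hmr1 and 3 in D. mauritiana. With gypsy-family reads out of the totals, 4 of these 5 repeats lay above both.

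**Figure D4:**
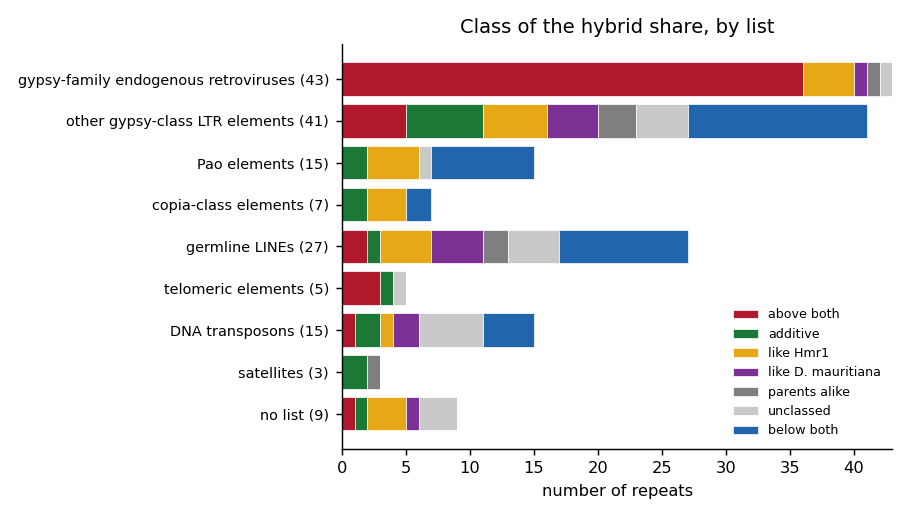
Bars count the measured repeats of each list by class, with the number of repeats in brackets. Of 43 gypsy-family repeats 36 are above both, while the repeats below both lie mostly among other gypsy-class elements (14), LINEs (10) and Pao elements (8).

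Copia-class elements, LTR elements related to copia, summed to 3.59% of reads in the hybrid, 3.92% at the mid-parent, 4.38% in Hmr1 and 3.46% in D. mauritiana. Of their 7 repeats 0 lay above both and 2 (28.6%) below both, the second share near the 23% of all repeats, with a median log2 ratio of 0.19. On totals without the gypsy-family list 2 lay above both, 2 below both and the median was 1.12. Copia_I-int had 17610 RPM in the hybrid, 15430 at the mid-parent, 19975 in Hmr1 and 10886 in D. mauritiana, and lay above both on totals without the gypsy-family list. Copia2_I-int was like Hmr1 too, with 11774 RPM in the hybrid and 11307 in Hmr1, but its log2 ratio to the mid-parent of 0.71 turned to -0.82 with single-hit sequences. DM1731_I-int had 778 RPM in the hybrid, 7402 at the mid-parent, 3971 in Hmr1 and 10833 in D. mauritiana, and fitted no class with single-hit sequences.

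The 3 repeats listed as satellites lay close to the mid-parent on the table totals. HETRP_DM, annotated as a satellite but listed with the telomeric elements, did not, with 1693 RPM in the hybrid against 592 at the mid-parent. SAR_DM had 3296 RPM in the hybrid, 3246 at the mid-parent, 5937 in Hmr1 and 556 in D. mauritiana. RSP, the Responder satellite known as the target of the Segregation Distorter system, had 211 reads in the hybrid, with 1265 in Hmr1 and 1 in D. mauritiana, and its hybrid share was 41.8% of the Hmr1 share (interval 36.0 to 48.4). RSP is 1 of 9 repeats with at most 3 reads in D. mauritiana, where the mid-parent is the Hmr1 share divided by the number of parents. Of these 9 repeats, BARI_DM, Gypsy2_LTR, Stalker3_LTR and Gypsy6_LTR lay above both, at 2.97 to 8.13 times Hmr1. RSP was additive, and TART_B1, Transib5, G3_DM and TC1-2_DM stood at 2.54% to 17.1% of the Hmr1 share. Repeats that D. mauritiana nearly lacks thus spread over both sides of the additive value. These 9 were singled out after their counts were seen. Totals without the gypsy-family list put 1 of the 3 satellite repeats above both and 2 like Hmr1.

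The classes were also counted by which parent was higher. Among 38 repeats at least 4-fold higher in Hmr1 than in D. mauritiana, 12 were above both, 2 below both, 11 additive, 4 like Hmr1, 3 like D. mauritiana and 6 in no class. Among 31 repeats at least 4-fold higher in D. mauritiana than in Hmr1, 3 were above both, 4 below both, 1 was additive, 9 were like Hmr1, 1 was like D. mauritiana and 13 fitted no class. Over all repeats 10.3% were additive and 29.1% above both. The median log2 ratio of hybrid to mid-parent was 0.24 for the first group and -2.04 for the second. Without gypsy-family repeats these medians were -0.27 over 28 repeats and -2.43 over 26. MDG3_I-int shows the first kind, with 16632 RPM in the hybrid, 20338 at the mid-parent, 36623 in Hmr1 and 4054 in D. mauritiana. DMRT1C shows the second, with 176 in the hybrid, 7565 at the mid-parent, 86.1 in Hmr1 and 15045 in D. mauritiana.

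Some repeats sat near a limit. DM297_LTR, at 1.42 times the nearer parent, and DM176_LTR, at 1.43 times, were just outside the class above both. NTS_DM with 104 reads and ACCORD2_LTR with 109 reads in D. mauritiana were just inside the limit on reads, while G5A_DM with 94 reads in Hmr1 and DMTOM1_LTR with 91 in D. mauritiana were just outside it. The 47 repeats under the limit held 0.283% of hybrid reads. Where the parents were alike, BLASTOPIA_I-int had 7955 RPM in the hybrid, 6298 at the mid-parent, 6222 in Hmr1 and 6374 in D. mauritiana, and DOC, a LINE, had 8308 RPM in the hybrid against 10216 at the mid-parent.

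The internal part and the LTR of 1 element are separate names in the table. Of 47 such pairs 31 shared a class and 45 lay on the same side of the mid-parent, while 0 had 1 part above both and the other below both. TIRANT_I-int had a log2 ratio of 3.26 and its LTR 0.63. Invader4_I-int had -0.78 and its LTR 1.51.

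Read length, the first base and base 10 did not enter the choice of class. Hybrid reads were longer, with a mean of 25.5 nt against 24.9 nt at the mid-parent. Reads of 26 nt or more made up 51.3% of the hybrid, 32.0% of the mid-parent, 29.1% of Hmr1 and 34.8% of D. mauritiana. Of 85 repeats with at least 100 reads in each library, the hybrid mean was longer than both parents in 73 (85.9%) and shorter than both in 2 (2.35%). Among the 28 of these above both parents it was longer in 22, and among the 24 below both in 21, so the longer reads were found on both sides of the mid-parent. Counting only reads of 25 to 28 nt gave 45 repeats above both and 38 below both out of 154 measured. Of the repeats called on all lengths and still measured, 43 of 47 stayed above both and 35 of 35 below both.

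T at base 1, the letter for the U that most piRNAs begin with, was carried by 73.1% of hybrid reads, 64.8% at the mid-parent, 70.3% in Hmr1 and 59.2% in D. mauritiana. A at base 10 was carried by 29.2% of hybrid reads and 29.1% at the mid-parent, but the classes differed. In repeats below both it was carried by 34.2% of hybrid reads (interval 33.4 to 35.0), against 28.4% at the mid-parent, 28.7% in Hmr1 and 28.2% in D. mauritiana. In repeats above both it was carried by 26.5% of hybrid reads (26.3 to 26.8), against 28.9% at the mid-parent, 29.5% in Hmr1 and 28.3% in D. mauritiana. In repeats like D. mauritiana the hybrid was above both parents as well, at 32.8% against 27.2% in Hmr1 and 26.7% in D. mauritiana. Over the 85 repeats with at least 100 reads in each library, the hybrid share with A at base 10 exceeded both parents in 43 (50.6%) and was under both in 18 (21.2%). Repeat by repeat, the hybrid share with A at base 10 exceeded both parents in 19 of 24 repeats below both and was under both parents in 0. It exceeded both parents in 9 of 11 repeats like Hmr1 and in 6 of 9 like D. mauritiana. In 28 repeats above both it exceeded both parents in 5 and was under both in 12.

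**Figure D5:**
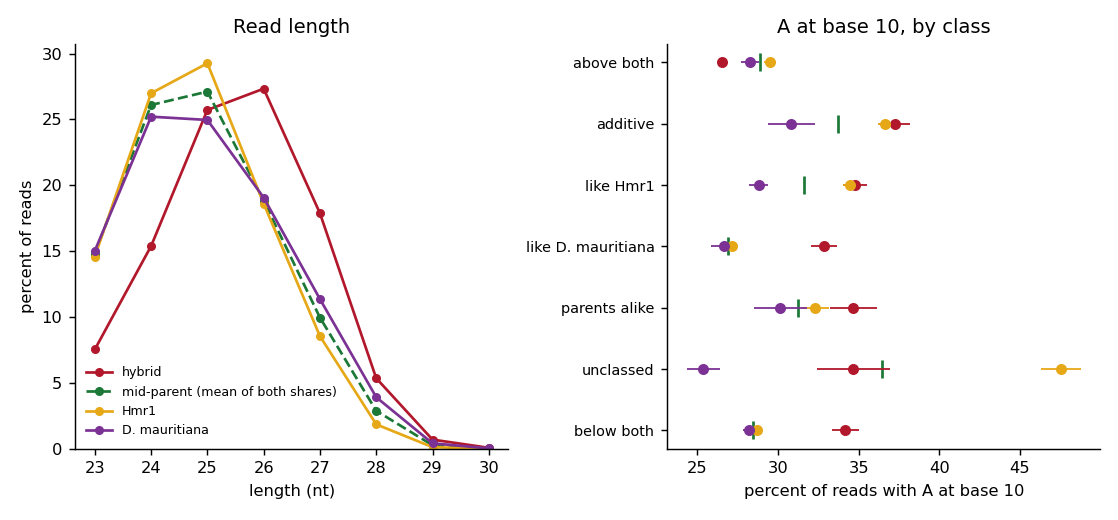
The left plot gives the percent of reads at each length from 23 to 30 nt, and the right plot the percent of reads with A at base 10 by class, with exact 95% intervals of counting error and a bar for the mid-parent. The hybrid curve peaks at 26 nt and both parental curves at 24 or 25 nt, and the hybrid point lies right of both parents in repeats below both and left of both in repeats above both.

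Most hybrid sequences were not seen in either parent at this depth. By reads, 64.6% of the hybrid table came from sequences absent from both parental libraries, 31.6% from sequences also in Hmr1 and 10.1% from sequences also in D. mauritiana, of which 6.23% were in both. With Hmr1 thinned to the depth of D. mauritiana its share was 17.5%. The parents shared few sequences with each other too. Of D. mauritiana reads 16.3% came from sequences also in Hmr1 (8.88% with Hmr1 thinned), and of Hmr1 reads 17.1% from sequences also in D. mauritiana. In the repeats like D. mauritiana 47.1% of hybrid reads matched an Hmr1 sequence and 11.0% a D. mauritiana sequence. The level of these repeats was thus near 1 parent while more of the sequences were shared with the other. The Hmr1 library was 3.31 times as deep as that of D. mauritiana, and with Hmr1 thinned to equal depth the 47.1% became 35.95%. These repeats also took 24.8% of Hmr1 reads against 8.52% of D. mauritiana reads. Greater sharing with Hmr1 is not particular to them, since it also held over the whole table.

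Sequences with 1 genomic hit, 11.0% of hybrid, 8.94% of Hmr1 and 8.19% of D. mauritiana reads, place the difference on chromosomes. The X chromosome held 71.3% of these reads in the hybrid, 21.9% at the mid-parent, 30.7% in Hmr1 and 13.1% in D. mauritiana. The X was the only one of 7 chromosome arms above both parents. The Y chromosome held 0.959% in the hybrid, 10.1% at the mid-parent, 13.8% in Hmr1 and 6.45% in D. mauritiana. A hybrid male has 1 X and 1 Y, each from 1 species. The mid-parent is thus no additive expectation for either of these chromosomes. Arm 2L held 4.52% in the hybrid against 16.0% at the mid-parent. Among 74 bins of 100 kb with at least 100 such reads in any library, 7 lay above both parents (9.46%), 35 below both (47.3%) and 2 were additive (2.7%). Of the 7 bins above both, 6 were on the X. All of these but the bin led by Gypsy5_I-int lay between chrX:21600001 and chrX:22200000, so they are neighbours rather than separate places. Other measured X bins were additive, like 1 parent or below both. The bin chrX:11100001-11200000, led by Gypsy5_I-int, had 20.6% of these reads in the hybrid, 2.27% at the mid-parent, 2.09% in Hmr1 and 2.46% in D. mauritiana. The bins chrX:21600001-21700000 and chrX:21700001-21800000, which hold lncRNA:flam, had 16.2% and 20.2% in the hybrid, against 1.02% and 1.74% at the mid-parent. These shares also add up to a whole, so the high X bins lower the hybrid shares of all other arms and bins. How many arms and bins would lie below both without the high X bins was not computed.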

How the data were processed

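Small RNA libraries of the hybrid, Hmr1 and D. mauritiana were used, grouped by their labels; the y w small RNA library, the 3 RNA-seq libraries and the other tables, with 84 columns of per-sample values, were not used. The values are read counts per distinct sequence as deposited by the authors, not scaled, over 350729 sequences of 23 to 30 nt, each with the number of its hits in the genome, the position of 1 of them and the name of 1 repeat. Per the submitters' processing notes, the tools were cutadapt 1.8.1, Bowtie 1.2.2 and Bowtie 0.12.7 and the build was dm6. Settings, and the source of the repeat annotation, are not given in the sources used here. A sequence with several hits counts once, under the annotation of the table.

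From these, counts were summed by repeat and divided by each column's total, since library depth is not given. Log2 ratios used a pseudocount of 1 read. Shares have exact Clopper-Pearson intervals, ratios exact conditional binomial intervals, both at 95%. Classes used a fold limit of 1.5. Repeats named were the 8 highest and 8 lowest outside both parents, the 6 most abundant of each other class and the 3 most abundant of each list; further ones named as exceptions, or as members of a small count, were chosen after their values were seen. The members, the 8 lists and the rule were chosen with earlier results of these data known. Gene names came from RefSeq for the same assembly. The procedure was tested on simulated counts. Python 3.11.15, pandas 2.3.3, numpy 2.4.6, scipy 1.17.1 and matplotlib 3.10.9 were used.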

Additional observations from a re-analysis of the deposited data

How the results depend on the processing

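With 1 library per group, the spread between flies is unknown, and a call rests on counting error and a fold limit alone. No paired analysis was possible because each group held 1 library. A repeat had 2 to 9843 hybrid reads, and a hybrid count of 0 is compatible with 17.0 RPM. Across the 12 alternatives that keep the repeat names, 34 of 48 repeats kept the class above both in every one that measured them, 17 of 38 below both and 0 of 17 additive, and 0 repeats moved between above and below both. Not all 12 could lose a call outside both parents. Another form of the mid-parent and dropping the read limit cannot change such calls, and a lower fold limit cannot lose them. Totals without the gypsy-family list cannot lose a call above both, and they leave the list members unmeasured. The cause of the changes below was not tested.

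With single-hit sequences, which measure 89 repeats, 19 lay above both, 8 were additive and 7 like Hmr1; the median log2 ratio was -1.10, the distance 58.7% and the gypsy-family log2 ratio 2.05, against 2.14 with all sequences. Signs turned for Copia2_I-int (-0.82), DOC2_DM (0.61) and DM412 (-1.29). Adding internal parts and LTRs gave 29 above both and 15 like Hmr1 with a median of -0.76 over 117 elements. Counting each distinct sequence once gave 19 like D. mauritiana, a distance of 42.2% and a gypsy-family ratio of 1.49. Totals without the gypsy-family list gave 23 above both, 20 below both and a distance of 44.0% over 122 repeats. A fold limit below 1.5 left 14 like Hmr1. The median was 0.15 with the geometric mid-parent. The distance was 55.0% with a mid-parent pooled over reads and 54.1% with the geometric one. The gypsy-family ratio was 2.08 with median-of-ratios scaling, 2.28 with the pooled and 2.16 with the geometric mid-parent. Of the alternatives added after seeing the data, leaving out sequences of 1000 or more reads gave 53.8% and 2.10, and keeping 25 to 28 nt gave 54.0% and 1.96, with DM297_LTR turning to -0.26. Without the read limit 54 repeats lay above both and 38 below both, with a median of -0.18, and a pseudocount of 10 reads gave 48 and 37 with a median of -0.35.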

Other observations

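Some sequences were far more abundant in 1 library than the rest. All 8 sequences with at least 1000 reads in any library had them in Hmr1, where they summed to 28681 reads, or 6.50% of its table, against 86 reads in the hybrid and 95 in D. mauritiana. They belonged to PROTOP (4 sequences), PROTOP_A (3 sequences) and Baggins1 (1 sequence). A further PROTOP_A sequence with 1 genomic hit shares its last 22 nt with the PROTOP sequence of the Y chromosome printed in the report. It lies in the annotated gene CG40470 and had 1 read in the hybrid, with 88 in Hmr1 and 1 in D. mauritiana.
PROTOP_A, chr3L:23841428-23841453, minus strand: gttttgatcAattggcaccatgcgaa

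Sequences made of a single base were listed under ROO_I-int. There were 6 of them, with 161 reads in the hybrid, against 17 in Hmr1 and 34 in D. mauritiana, which is 3.98% of hybrid ROO_I-int reads, 0.128% of those in Hmr1 and 17.2% of those in D. mauritiana.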
